A study of Homo sapiens with 58 samples.

Results

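Cranial neural crest cells (CNCCs) from separate differentiations of one human embryonic stem cell line were compared in the untreated state, in 7 of the 58 ATAC-seq samples of the series. The 7 are the SOX9-tagged samples kept for 48 h at 0 nM dTAGV-1, that is with DMSO vehicle. They form 2 sets by the name of the differentiation. R10, R13 and R14 gave 3 samples, all of clone S9CC13. R5, R6 and R8 gave 4 samples, which are S9CC47 R5, S9CC47 R6, S9CC47 R8 and S9CC13 R6. Both clones derive from H9, an established embryonic stem cell line, and each is a single edited line in which both SOX9 alleles carry FKBP12-F36V, mNeonGreen and V5. The FKBP12-F36V tag lets dTAGV-1 direct SOX9 to degradation. The labels give all 7 samples passage 4 and a SOX9 level of 100%, and all were grown in medium with BMP2 and CHIR-99021, a GSK3 inhibitor that activates WNT signalling. The labels give no meaning to the differentiation names beyond batch. R6 was used with both clones, so 7 samples come from 6 differentiations. The sets were chosen by differentiation name, and that division was selected on the 0 nM accessibility of these same samples. The 0 nM differences below are therefore a description with no p-value, and tests were run on samples at other doses. Among the 7, S9CC13 R6 is the single S9CC13 sample outside R10, R13 and R14. Any share of the difference that goes with the clone can be read among the 7 through that sample alone.

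Cranial neural crest cells arise at the border of the neural plate, migrate into the face and form its cartilage, bone, connective tissue, nerves and pigment cells. ATAC-seq reads open chromatin through cuts by the Tn5 transposase, and open sites are mostly promoters and enhancers, together called regulatory elements (REs) here. Promoters tend to be open in many cell types, whereas distal elements carry most of the cell state. SOX9 holds many crest and cartilage enhancers open. In WNT signalling, stabilized beta-catenin joins TCF/LEF factors on their DNA motif, and several of its targets, such as NKD1, NOTUM, AXIN2 and ZNRF3, dampen the pathway again.

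The total count in REs was 39.2 to 42.4 M in R10, R13 and R14 and 41.0 to 64.8 M in R5, R6 and R8, the highest being S9CC47 R8. No pair of the 7 agreed within counting noise, with a reduced chi-square from 3.79 to 33.7 over 21 pairs, and none was counted as a duplicate. Levels are CPM, the count of an RE scaled to the depth of its library with TMM over the 58 samples, and a log2 difference is R10, R13 and R14 over R5, R6 and R8. The log2 differences and the calls of sets that do not overlap at 0 nM come from an edgeR fit scaled over the 7 samples alone, so they can depart slightly from the printed CPM. R14 was assigned its doses by sample title, since its treatment fields for 0 and 0.5 nM contradict the titles and the stated SOX9 percentages.

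Sequence stretches of REs on which the results below turn are shown first, from the plus strand of hg38, 5' to 3'. In the first group, capitals mark the TCF/LEF pattern CTTTGAT or its reverse complement. Of the 12 REs named below as most open in R10, R13 and R14, 6 hold it in their central 500 bp. None of the 12 named for the opposite direction holds it in that window. Over all REs 7.16% held it, and 8.06% of distal REs. Both groups of 12 were chosen as the largest differences at 0 nM. An RE of the WNT effector gene LEF1 is added.
AMOTL1, chr11:94866932-94867231: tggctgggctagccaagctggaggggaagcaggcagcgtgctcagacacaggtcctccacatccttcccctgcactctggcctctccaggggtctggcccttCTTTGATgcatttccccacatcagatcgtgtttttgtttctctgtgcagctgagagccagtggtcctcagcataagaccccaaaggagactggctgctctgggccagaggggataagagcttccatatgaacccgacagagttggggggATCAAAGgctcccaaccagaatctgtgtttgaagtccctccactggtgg
DTNBP1, chr6:15525874-15525974: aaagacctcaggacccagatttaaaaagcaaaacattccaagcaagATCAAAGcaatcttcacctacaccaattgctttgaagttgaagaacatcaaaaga
C10orf90, chr10:126565706-126565806: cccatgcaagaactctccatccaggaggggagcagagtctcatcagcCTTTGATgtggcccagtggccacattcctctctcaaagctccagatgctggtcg
RBFOX1, chr16:7545354-7545454: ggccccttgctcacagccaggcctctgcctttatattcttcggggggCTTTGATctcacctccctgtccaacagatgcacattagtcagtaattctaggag
EDEM1, chr3:5298029-5298129: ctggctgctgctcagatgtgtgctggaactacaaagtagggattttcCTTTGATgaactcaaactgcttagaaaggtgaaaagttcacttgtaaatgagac
ASTN1, chr1:176996675-176996775: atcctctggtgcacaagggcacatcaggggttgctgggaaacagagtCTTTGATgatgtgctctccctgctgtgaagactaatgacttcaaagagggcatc
LEF1, chr4:108173493-108173593: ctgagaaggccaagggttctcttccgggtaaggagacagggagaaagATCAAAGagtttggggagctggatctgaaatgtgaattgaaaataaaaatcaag
The next stretches come from REs most open in R5, R6 and R8, and capitals mark the homeobox core TAATTA, which reads the same on both strands. The core also occurs in the DTNBP1 and ASTN1 REs of the first group.
TLL1, chr4:166286457-166286557: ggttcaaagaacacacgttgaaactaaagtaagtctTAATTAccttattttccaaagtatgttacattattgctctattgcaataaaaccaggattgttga
WDR70, chr5:37738367-37738467: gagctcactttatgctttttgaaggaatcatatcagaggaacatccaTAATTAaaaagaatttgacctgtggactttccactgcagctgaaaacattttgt
The last stretch lies at the CAT promoter, which separated the clones and not the sets, and capitals mark the SP/KLF pattern GGGCGG or its reverse complement.
CAT, chr11:34438615-34438715: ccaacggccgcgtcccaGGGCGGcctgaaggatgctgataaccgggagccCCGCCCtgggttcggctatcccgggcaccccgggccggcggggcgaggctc

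Both sets carried the open promoters of crest. The promoter RE of ALX1, a homeobox factor of facial mesenchyme, held 103, 94.4 and 95.0 CPM in R10, R13 and R14, and 97.6, 87.9, 99.9 and 82.8 CPM in S9CC13 R6, S9CC47 R5, S9CC47 R6 and S9CC47 R8. The sets overlapped there, and also at PRRX1, with 40.3 to 49.5 against 30.6 to 46.0 CPM. At TFAP2B, R10, R13 and R14 were slightly lower, with 16.2 to 18.9 against 19.1 to 22.5 CPM, but the sets overlapped when scaled over the 7 samples alone. Several other crest promoters were more open in R10, R13 and R14. TFAP2A ran from 54.8 to 65.9 against 35.6 to 48.8 CPM, TWIST1 from 51.5 to 58.3 against 32.5 to 39.1 CPM, SOX9 from 45.6 to 52.4 against 37.7 to 43.7 CPM, and MSX1 from 17.8 to 26.5 against 8.29 to 14.3 CPM. Their log2 differences were 0.52, 0.68, 0.31 and 1.08. The median was 0.20 over all promoter REs and 0.54 over the most GC-rich class of REs, so the shift is not particular to crest genes. In the edgeR test of the sets at 0.5 nM, TWIST1 and MSX1 passed (adjusted p = 0.033 and 0.038). TFAP2A and SOX9 did not (adjusted p = 0.070 and 0.22). Among markers of other cells, the promoter REs of POU5F1 (pluripotency) and SOX1 (neural progenitors) lay between 0.92 and 2.73 CPM in the 7 samples and that of CDH1 (epithelium) between 2.78 and 4.82 CPM. EPCAM held 8.63 to 12.7 CPM and PAX6 13.8 to 24.6 CPM, with the sets overlapping in both. The endothelial gene CDH5 held 6.94 to 7.44 CPM in R10, R13 and R14 against 10.9 to 14.1 CPM. No promoter RE was counted for NANOG or PECAM1. In such bulk samples, fewer cells of a type and less open chromatin per cell cannot be told apart.

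The sets lay apart on the first principal component of the 7 samples, which held 41.9% of the variance. Scores were 117, 73.1 and 88.3 in R10, R13 and R14, and -71.4, -62.3, -48.9 and -96.2 in S9CC13 R6, S9CC47 R5, S9CC47 R6 and S9CC47 R8. The second component, with 28.4%, ran within both sets, from -41.6 (R10) to 66.2 (R13) in the one and from -87.1 (S9CC47 R5) to 115 (S9CC47 R8) in the other. As root mean square log2 distance over REs with a mean of at least 1 CPM, pairs from different sets differed by 0.516 to 0.757, against 0.351 to 0.484 among R10, R13 and R14. Pairs within R5, R6 and R8 differed by 0.321 to 0.604, so that the most distant of them exceeded some pairs between the sets. The closest pair of the 21 was S9CC13 R6 with S9CC47 R5, at 0.321, which share neither clone nor differentiation. The pair that shares R6, S9CC13 and S9CC47, differed by 0.446. Projected on the same components, the 0.5 nM samples kept to the side of their set.

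**Figure D1:**
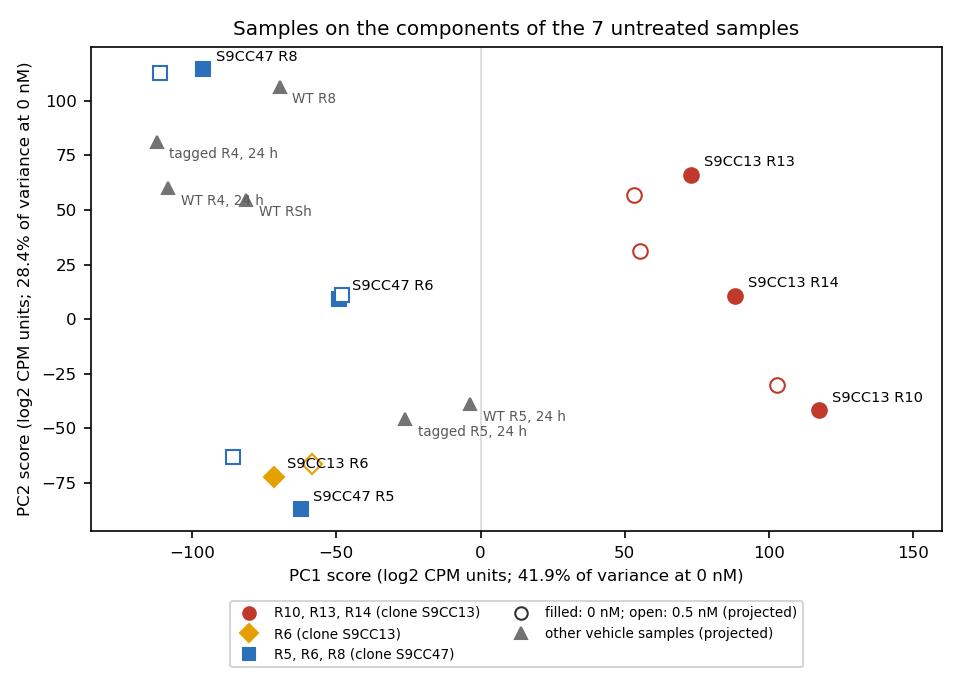
Scores on the first (x axis) and second (y axis) principal component of the 7 samples at 0 nM (filled), in log2 CPM units, with the 0.5 nM samples (open) and other vehicle samples (triangles) projected. R10, R13 and R14 lie above 0 on the first component at both doses, and S9CC13 R6 lies with the S9CC47 samples.

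At 0 nM, 24% of the 151457 REs had levels that did not overlap between the sets. Of these, 5713 REs (3.77%) also differed at least 2-fold, 2422 higher (1.6%) and 3291 lower (2.17%) in R10, R13 and R14. The limit of 2-fold cut through a continuum, with log2 differences of 1 just inside and 0.99996 just outside, and with 1844 REs between 1 and 1.1 beside 2619 between 0.9 and 1. The directions divided by position. Of 37377 promoter REs (within 1000 bp of an annotated transcript start), 1644 were higher and 233 lower, whereas of 114080 distal REs 778 were higher and 3058 lower. The median log2 difference was 0.20 over promoter REs and -0.06 over distal REs. With scaling to total counts in place of TMM, the median over all REs moved from 0.01 to -0.12, and 1289 REs were higher and 5295 lower. Leaving out R13 gave 5169 lower REs and leaving out S9CC47 R6 gave 5057.

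Base composition moved with the same division. The REs higher in R10, R13 and R14 had a median GC content of 69.1% and 67.9% of them were promoter REs, against 41.1% GC and 7.08% promoter REs among those lower, and 48.1% GC and 24.7% promoter REs over all. Over 10 classes of GC content of near equal size, the median log2 difference rose from -0.21 in the lowest class to 0.54 in the highest, and from -0.21 to 0.28 among distal REs alone. As a share of all counts, promoter REs took 58.5%, 56.0% and 55.3% in R10, R13 and R14, and 50.4%, 48.8%, 50.0% and 47.5% in S9CC13 R6, S9CC47 R5, S9CC47 R6 and S9CC47 R8. The means were 56.6% ± 1.7 (SD, n = 3) and 49.2% ± 1.3 (SD, n = 4), and the sets did not overlap. At 0.5 nM, in separate libraries of the same 7 replicates, the means were 55.5% ± 1.6 (SD, n = 3) and 48.1% ± 2.7 (SD, n = 4). The difference was 7.34 percentage points (two-sided exact permutation test p = 0.0571, the smallest that 3 against 4 samples allow). The sets were chosen on the same differentiations, so this shows recurrence between libraries only. The sets stayed apart in this share at the other doses except 5 nM, where S9CC47 R6 rose to 56.9%, above R13 and R14. The part of GC content or of the share of promoter reads in the differences at single REs was not tested beyond the GC correction given next. Along the genome no large block stood out. Chromosome medians differed between the sets by -0.09 (chromosome 13) to 0.15 (chromosome 19) on the log2 scale, and of 304 bins of 10 Mb the furthest single sample from the mean of the 7 was S9CC47 R8 at -0.32, at the end of chromosome 22.

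**Figure D2:**
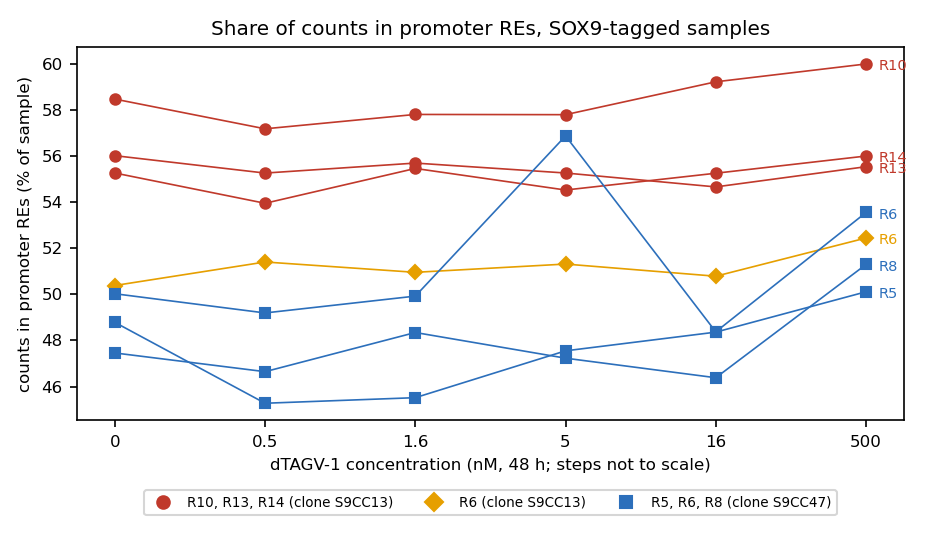
Share of counts in promoter REs (y axis, percent of a sample) at each dTAGV-1 concentration (x axis, steps not to scale) in the 42 SOX9-tagged 48 h samples, with a line for each replicate. R10, R13 and R14 lie between 53.96% and 60.01%, above the others at each concentration except 5 nM, where S9CC47 R6 reaches 56.9%.

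The set difference was then tested at 0.5 nM, the dose nearest to untreated cells (77.9% SOX9), in separate libraries of the same 7 replicates. With edgeR's quasi-likelihood test, 13041 REs (8.61%) passed an adjusted p of 0.05, 5945 higher (3.93%) and 7096 lower (4.69%) in R10, R13 and R14. The same division by position appeared, with 4479 promoter REs higher and 573 lower, and 1466 distal REs higher and 6523 lower. Of the 2422 REs higher at 0 nM, 1743 were called higher at 0.5 nM, which is 72.0% of the first list and 29.3% of the second. Of the 3291 lower, 2294 were called lower, 69.7% and 32.3%. None was called in the opposite direction. The libraries of both doses come from the same differentiations, so this test shows that the difference recurs between libraries, and the p-values measure the spread between these 7 replicates. The count fell to 1605 without R13, 2207 without R10, 3131 without R14, 6329 without S9CC47 R5 and 6386 without S9CC47 R6, and higher calls rose to 11467 without S9CC13 R6. A correction for GC content in each sample left 5300 REs (2240 higher and 3060 lower), with 1118 promoter REs higher and 405 lower and 1122 and 2655 distal REs, and a fit of distal REs alone 3677 (1254 and 2423).

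At the higher doses the REs of the 0 nM lists kept their side to differing degrees. Of those higher at 0 nM, 86.0% did not overlap in the same direction at 1.6 nM, 84.7% at 16 nM and 77.2% at 500 nM, against 9.05 to 11.2% of all REs at these doses. At 5 nM the share was 23.2% against 5.89%, and there S9CC47 R6, the sample with the raised promoter share, stood at the level of R10, R13 and R14. Of those lower at 0 nM, 80.3%, 75.7%, 68.7% and 61.3% remained apart at 1.6, 5, 16 and 500 nM, against 10.0 to 12.9% of all REs.

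**Figure D3:**
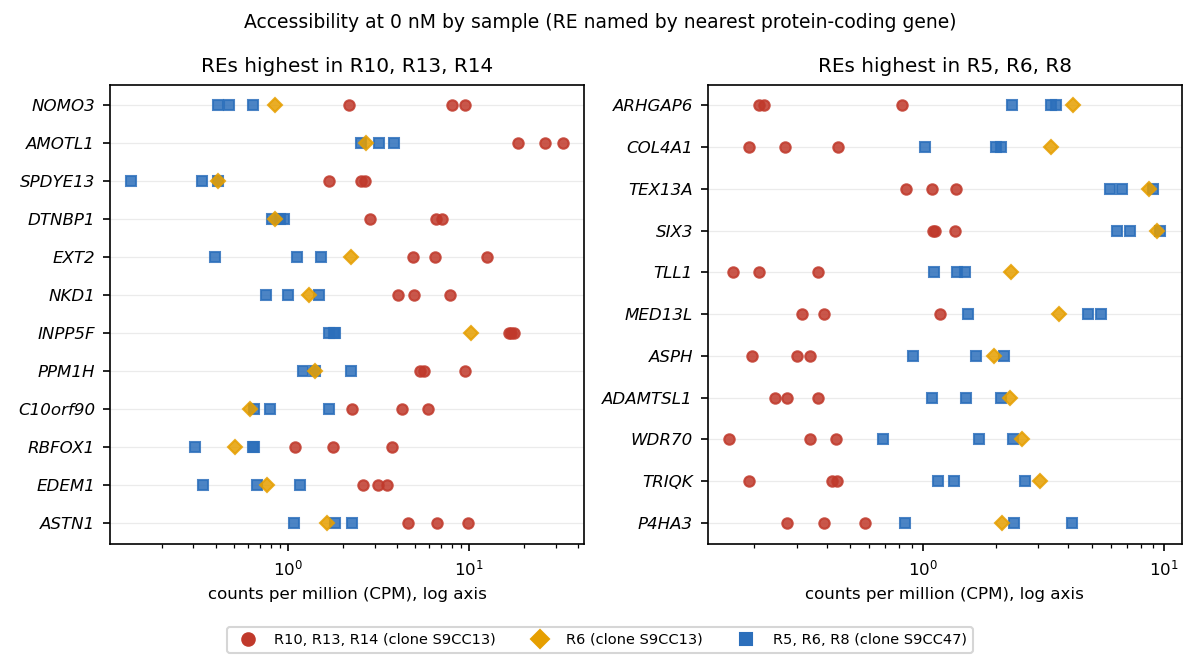
Accessibility at 0 nM in CPM (x axis, log scale) of the REs with the largest difference in each direction (12 and, with 1 not shown, 11), by sample, named by the nearest protein-coding gene (y axis). In every row the 3 samples of R10, R13 and R14 lie apart from the other 4, since rows were chosen for this. S9CC13 R6 lies with S9CC47 in most rows and nearer to R10, R13 and R14 at INPP5F.

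REs are named by the nearest protein-coding start site, which need not be the gene they act on. AMOTL1 encodes a member of the angiomotin family, scaffold proteins that bind YAP at cell junctions. An RE in its intron (chr11:94866932-94867432), 2104 bp from the start site and with 3 TCF/LEF matches, held 18.6, 26.1 and 32.8 CPM in R10, R13 and R14. In S9CC13 R6, S9CC47 R5, S9CC47 R6 and S9CC47 R8 it held 2.68, 2.52, 3.18 and 3.86 CPM. The 4 samples of R5, R6 and R8 were alike and low in both clones, a log2 difference of 3.12. At 0.5 nM the difference was 2.87 (SE 0.27, edgeR adjusted p = 0.0028), and it was called in 7 of 7 fits that left out a replicate. In vehicle samples outside the 2 sets this RE ranged widely, with 25.7 CPM in WT RSh and 4.91 CPM in WT R8 at 48 h, and 16.8 CPM in WT R5, 10.1 CPM in tagged R5, 8.6 CPM in WT R4 and 7.53 CPM in tagged R4 at 24 h. All 6 exceeded the 4 samples of R5, R6 and R8.

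The RE of DTNBP1, a subunit of the BLOC-1 complex of lysosome-related organelles, is intronic (chr6:15525874-15526374). It held 2.84, 6.52 and 7.06 CPM in R10, R13 and R14, and 0.843, 0.906, 0.818 and 0.943 CPM in S9CC13 R6, S9CC47 R5, S9CC47 R6 and S9CC47 R8. R10 was the lowest of its set but above all 4 others, and WT RSh was again high at 7.31 CPM. EXT2 makes heparan sulfate chains, on which many growth factors depend. An RE over one of its exons (chr11:44144305-44144805) held 6.44, 4.91 and 12.5 CPM in R10, R13 and R14, and 2.22, 1.51, 1.11 and 0.396 CPM in S9CC13 R6, S9CC47 R5, S9CC47 R6 and S9CC47 R8. In vehicle samples of R5 taken at 24 h it was as open as in R10, R13 and R14, with 9.72 CPM in SOX9-tagged and 10.3 CPM in WT cells, although S9CC47 R5 at 48 h held 1.51 CPM. The REs at PPM1H, a phosphatase gene, and ASTN1, a gene of neuronal migration, were likewise raised in those R5 samples, with 5.18 and 5.97 CPM at PPM1H and 7.37 and 4.25 CPM at ASTN1. All 12 REs named as higher in R10, R13 and R14 passed the 0.5 nM test, with log2 differences of 1.48 to 2.87 and adjusted p from 0.0028 to 0.031. They were chosen as the largest 0 nM differences of the same replicates, so passing shows recurrence between libraries and is no independent support. C10orf90 kept its call in 3 and INPP5F in 2 of 7 fits that left out a replicate. NOMO3 and SPDYE13 lie in families of near-identical gene copies, and their counts are uncertain.

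WNT targets were among the loci with such REs. Of 207 REs within 100 kb of 14 genes listed as WNT targets, 11 were higher and 3 lower at 0 nM (5.31% and 1.45%, against 1.6% and 2.17% of all REs). At 0.5 nM, 18 passed the test as higher and 11 as lower (8.70% and 5.31%, against 3.93% and 4.69%). With scaling to total counts 8 were higher and 6 lower at 0 nM, and with the GC correction 9 and 3 passed at 0.5 nM. As a whole the list overlapped between the sets at 0 nM. Its median log2 level against the mean of the 7 was -0.03, 0.05 and 0.05 in R10, R13 and R14. In S9CC13 R6, S9CC47 R5, S9CC47 R6 and S9CC47 R8 it was 0.08, 0.05, -0.13 and -0.15. NOTUM, a secreted enzyme that inactivates WNT ligands, had 3 of its 4 REs higher, with a median log2 difference of 1.19. NKD1, an intracellular WNT antagonist, had 3 of 36 higher and 1 lower. Its leading RE is intergenic, 26542 bp from the start site (chr16:50651767-50652267), and held 4.94, 4.05 and 7.86 CPM in R10, R13 and R14. In S9CC13 R6, S9CC47 R5, S9CC47 R6 and S9CC47 R8 it held 1.30, 0.993, 0.75 and 1.48 CPM, all below the lowest of the other set. The 0.5 nM difference there was 1.65 (SE 0.27, adjusted p = 0.0084). LEF1 is itself a DNA-binding partner of beta-catenin. An RE 4164 bp from its start site, over an exon of the antisense gene LEF1-AS1 (chr4:108173120-108173620), held 20.8, 22.8 and 22.5 CPM in R10, R13 and R14 and 7.48, 6.39, 5.00 and 3.89 CPM in S9CC13 R6, S9CC47 R5, S9CC47 R6 and S9CC47 R8. R10, R13 and R14 were nearly equal and well above the rest (0.5 nM log2 difference 1.66, SE 0.22, adjusted p = 0.0041). AXIN2, the usual readout of the pathway, had 0 of 23 REs past 2-fold at 0 nM, with 2 called higher and 2 lower at 0.5 nM. Of the 9 REs of LGR5, an R-spondin receptor, 2 were lower. TNFRSF19 had 2 of 19 higher at 0 nM but 1 higher and 4 lower at 0.5 nM. WNT7B, a ligand gene outside the list and chosen after its values were seen, had 5 of 26 REs higher at 0 nM, with 3 called at 0.5 nM.

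The REs most open in R5, R6 and R8 were mostly intronic or intergenic, with 11 of the 12 named outside promoters. SIX3 is a transcription factor of the anterior forebrain and eye. The nearest RE in this group lies 98156 bp from its start site (chr2:44843046-44843546) and held 1.36, 1.1 and 1.12 CPM in R10, R13 and R14, and 9.32, 7.23, 9.64 and 6.36 CPM in S9CC13 R6, S9CC47 R5, S9CC47 R6 and S9CC47 R8. S9CC13 R6 was among the highest, and the 0.5 nM difference was -2.80 (SE 0.26, adjusted p = 0.0028). An RE in an intron of IL1RAPL2, with TEX13A as nearest start site (chrX:105020831-105021331), held 1.09, 1.37 and 0.855 CPM against 8.63, 5.93, 6.66 and 8.95 CPM in the same order. There WT and SOX9-tagged R4 vehicle samples at 24 h resembled R5, R6 and R8 with 8.38 and 7.32 CPM, whereas the R5 vehicle samples lay between the sets with 2.58 (WT) and 3.12 CPM (tagged).

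Other REs named as lower lie nearest to ARHGAP6, COL4A1, TLL1 (a BMP1-like protease), MED13L (a Mediator subunit), ASPH, ADAMTSL1, WDR70, TRIQK and P4HA3 (a collagen prolyl hydroxylase), with 0.158 to 1.17 CPM in R10, R13 and R14 and 0.685 to 5.48 CPM in R5, R6 and R8. All 12 passed the 0.5 nM test, with log2 differences of -4.29 to -1.79 and adjusted p from 0.0028 to 0.019. These too were chosen on 0 nM values of the same replicates, so passing shows recurrence between libraries only. ASPH kept its call in 4 of 7 fits that left out a replicate, and P4HA3 and TRIQK in 5.

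Loci with the most lower or higher REs follow, those outside the gene lists chosen after their counts were seen, and loci with more REs can hold more calls by number alone. Over all REs, 2.17% were lower and 1.6% higher at 0 nM, and 4.69% were called lower and 3.93% higher at 0.5 nM. GMDS, which makes GDP-fucose, had 8 of 68 REs lower at 0 nM and 20 called lower at 0.5 nM. ROBO1, a guidance receptor, had 8 of 56 lower and 1 higher. SOX6, which with SOX5 and SOX9 drives the cartilage program, had 7 of 50 lower and 0 higher (8 called lower at 0.5 nM), and SOX5 had 4 of 49 lower and 1 higher. RGS5, a pericyte marker, had 5 of 14 lower, and 5 were called lower at 0.5 nM. Its list of smooth muscle and pericyte genes had 5 of 70 REs lower, all at RGS5, and 1 higher, at CNN1. At 0.5 nM that list had 4 REs called higher and 6 lower. On the other side the higher REs were 5 of 20 at TAFA5, 5 of 26 at WNT7B, 4 of 13 at ASIC2, 4 of 13 at HAO2 and 4 of 10 at TAB2. Each of these loci had 0 lower.

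Lists of crest and derivative genes are read against the 1.6% of all REs that were higher and 2.17% that were lower at 0 nM (0.68% and 2.68% of distal REs). Over 330 REs of 17 crest specifiers, 3 were higher and 9 lower at 0 nM (0.91% and 2.73%, near the background for lower REs), and 7 and 26 were called at 0.5 nM (2.12% and 7.88%, against 3.93% and 4.69% of all REs). For 18 cartilage genes the 259 REs gave 5 higher and 13 lower (1.93% and 5.02%), and 6 and 22 called. Of the 13 lower, 7 were at SOX6 and 4 at SOX5, with 1 each at CNMD and TRPS1. ACAN, COMP, COL11A2 and MATN1 had 1 higher and 0 lower each. Adhesion and epithelial-mesenchymal transition genes gave 3 higher and 10 lower of 191 REs (1.57% and 5.24%), and retinoic acid genes 0 and 7 of 253 (0% and 2.77%). Of the 10, 4 were at ITGA4 and 3 at ZEB2. Of the 7, 4 were at RARB and 2 at ALDH1A1, and their 2.77% is near the 2.68% of distal REs. With GC correction the 0.5 nM calls were 4 higher and 11 lower for the crest list, 3 and 9 for cartilage, 3 and 3 for the adhesion list and 4 and 5 for retinoic acid. Facial mesenchyme genes gave 6 and 3 of 264, and AP-1 and YAP target genes 4 and 0 of 133. Pluripotency genes gave 0 and 0 of 97 REs. The median log2 difference of the lists lay between -0.13 and 0.11, and in all 22 lists the median of promoter REs was above 0, as it was over all promoter REs.

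SOX10 marks early crest and its glial and pigment lineages. An RE 9675 bp from its start site, in an untranslated exon of POLR2F (chr22:37967856-37968356), held 7.83, 4.97 and 3.57 CPM in R10, R13 and R14 and 17.1, 15.2, 16.9 and 15.7 CPM in S9CC13 R6, S9CC47 R5, S9CC47 R6 and S9CC47 R8. The 4 samples of R5, R6 and R8 were alike, and the 0.5 nM difference was -1.25 (SE 0.17, adjusted p = 0.0045). This RE also fell 3 h after SOX9 loss (log2 change -4.17, adjusted p = 1.3e-10 with edgeR). JAG1, a Notch ligand that patterns the jaw, had a promoter RE (chr20:10651945-10652445) with 2.13, 1.71 and 1.56 CPM against 6.92, 7.51, 4.46 and 4.02 CPM in the same order (0.5 nM difference -1.74, SE 0.23, adjusted p = 0.0041). SPRED2, an inhibitor of Ras and ERK signalling, had an intronic RE with 1.56, 1.58 and 1.17 CPM against 4.85, 4.77, 5.27 and 6.5 CPM (-2.14, SE 0.24, adjusted p = 0.0028). In the opposite direction, the promoter RE of TWIST2, a mesenchymal factor, had 30.8, 31.6 and 31.8 CPM against 12.4, 14.8, 7.55 and 6.09 CPM (1.47, SE 0.23, adjusted p = 0.0077), and that of the BMP pseudoreceptor gene BAMBI had 26.8, 22.3 and 15.97 against 11.2, 8.67, 10.4 and 7.82 CPM (1.09, SE 0.22, adjusted p = 0.015). These promoter REs are GC-rich, at 70.7% and 76.6%. The 5 REs above were chosen for the largest differences in their gene lists, and do not stand for their loci. At 0 nM SOX10 had 1 of 9 REs lower, JAG1 1 higher and 1 lower of 13, and SPRED2 1 of 24 lower. TWIST2 had 2 of 19 higher and BAMBI 1 of 17 higher. At 0.5 nM BAMBI had 1 called higher and 3 called lower.

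Sequence patterns were counted on both strands of the central 500 bp of each RE, so the flanks of wider REs were not searched. Because GC content differed, distal REs of 35 to 50% GC were compared, of which there were 394 higher, 2419 lower and 73008 in all. The TCF/LEF pattern CTTTGAT was present in 26.6% of those higher and 7.32% of those lower, against 9.27% of all. The AP-1 pattern TGANTCA was present in 29.2%, 15.4% and 17.8% in that order, and the NR2F half-site AGGTCA in 48.0%, 35.3% and 36.0%. The E-box CAGGTG, bound by ZEB repressors, went the opposite way, with 13.96% of those higher, 31.7% of those lower and 27.8% of all. The homeobox core TAATTA was present in 17.3%, 25.1% and 18.5%, the GATA pattern AGATAA in 30.7%, 35.1% and 30.2%, and the SOX pattern ACAANG in 68.5%, 72.9% and 68.2%. The CTCF pattern was rarer in both lists, with 5.58% and 3.22% against 10.5%. Among distal REs of this GC range called at 0.5 nM, 608 higher and 5038 lower, TCF/LEF was present in 19.9% and 7.88%, AP-1 in 40.8% and 14.2% and the homeobox core in 16.3% and 24.2%. The E-box was present in 18.9% and 25.6%, both under the 27.8% of all, so its excess among lower REs was not seen at 0.5 nM. A match is a run of letters and no evidence of binding. Over all 9191 distal REs with the TCF/LEF pattern the median log2 difference at 0 nM was -0.03, with 150 higher and 221 lower. At 0.5 nM it was -0.09, or 0.04 after GC correction. CTTTGAT and the reverse complement of the SOX pattern, CNTTGT, differ in their last letters and cannot match the same aligned letters.

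**Figure D4:**
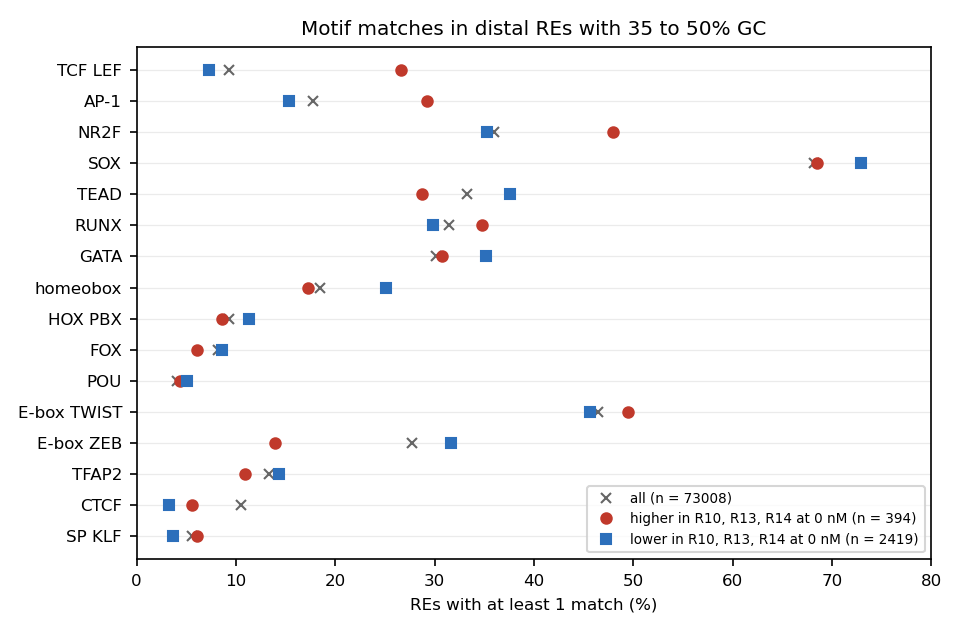
Share of distal REs of 35 to 50% GC with at least 1 match to each pattern (x axis, percent), for all such REs (crosses), those higher (circles) and those lower (squares) in R10, R13 and R14 at 0 nM. TCF/LEF stands at 26.6% against 9.27% of all, and the homeobox core at 25.1% of the lower REs against 18.5%.

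SOX9-responsive elements were then placed between the sets. The list comes from other samples, but R5 is also a differentiation of R5, R6 and R8, and a fall can be called only where an RE is open in the vehicle cells. The list is thus not independent of the sets, and its values are a description. In the time course of SOX9-tagged R4 and R5, 11252 REs (7.43%) were lower 3 h after 500 nM dTAGV-1 than with vehicle, with edgeR and the differentiation as block. At 0 nM these REs were less open in R10, R13 and R14, with a median log2 difference of -0.44 against 0.01 over all REs and -0.06 over distal REs. Per sample, their median against the mean of the 7 was -0.21, -0.28 and -0.31 in R10, R13 and R14, and 0.28, 0.20, 0.19 and 0.14 in S9CC13 R6, S9CC47 R5, S9CC47 R6 and S9CC47 R8. S9CC13 R6 was the highest of all, and the sets did not overlap. The dose of R14 rests on its title, as given above. The R14 sample titled 0.5 nM stood at -0.16 against the mean at that dose, where the sets did not overlap either. Of the 11252, 1085 (9.64%, against 2.17% of all REs) were lower and 24 higher at 0 nM, and 2175 (19.3%, against 4.69%) were called lower and 79 higher at 0.5 nM. The median at 0 nM was -0.47 with DESeq2 size factors and -0.57 with total counts, and at 0.5 nM -0.44, or -0.32 after GC correction. The labels give one SOX9 level for both sets at 0 nM, and SOX9 level per sample was not analysed here. The promoter RE of SOX9 itself was slightly more open in R10, R13 and R14, as given above, and did not pass the 0.5 nM test (log2 0.29, SE 0.14, adjusted p = 0.22).

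Whether the sets also responded unlike to SOX9 loss was tested between 0.5 and 500 nM, as an interaction with the replicate as block. It passed for 393 REs (0.259%), with a higher response in R10, R13 and R14 at 100 and a lower one at 293. Of the 393, 203 were promoter REs, which make up 24.7% of all REs. From 0.5 to 500 nM the mean share of counts in promoter REs went from 48.1% to 51.9% in R5, R6 and R8. In R10, R13 and R14 it went from 55.5% to 57.2%. The part of this shift in the calls was not tested. Of the 100, the estimate in R5, R6 and R8 fell at 87, so that most had a smaller fall in R10, R13 and R14, and of the 293 it rose at 255. Over the 11252 REs lower at 3 h the median response was -0.91 in R5, R6 and R8 and -0.72 in R10, R13 and R14, with 75 called higher and 1 lower. An RE in an exon of MPRIP, a myosin phosphatase partner (chr17:17096448-17096948), fell from 5.64, 7.97 and 7.73 to 1.18, 0.991 and 0.822 CPM in R10, R13 and R14. In S9CC13 R6, S9CC47 R5, S9CC47 R6 and S9CC47 R8 it fell from 9.45, 9.87, 12.6 and 19.0 to 0.485, 0.326, 0.545 and 0.678 CPM. R5, R6 and R8 thus started higher and ended lower, and the difference in response was 1.82 (SE 0.27, adjusted p = 0.010). An intronic RE of PDE4B, a cAMP phosphodiesterase gene, differed in the same way by 1.22 (SE 0.19, adjusted p = 0.013), and REs nearest to ATXN3L and TRIB2 by 1.06 and 1.18. For CHST8, a sulfotransferase gene, an intronic RE rose from 2.11 to 4.06 at 0.5 nM to 6.59 to 14.6 CPM in R5, R6 and R8, and from 3.93 to 5.68 to 6.11 to 7.93 CPM in R10, R13 and R14 (-1.20, SE 0.17, adjusted p = 0.0079). A lower level at 0.5 nM and a smaller fall from it use the same libraries and cannot be told apart from each other. With edgeR the count was 0 without R14 or without S9CC47 R6 (12484 and 13619 at an unadjusted p under 0.05), 66 without R10, 111 without R13, 112 without S9CC47 R5, 36 without S9CC47 R8 and 4186 without S9CC13 R6, and 0 with no replicate block (3008 unadjusted). DESeq2 called 223 with the block.

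The check of the clone starts from REs chosen without S9CC13 R6. At 0 nM, 4525 REs differed at least 2-fold between R10, R13 and R14 and the 3 S9CC47 samples with no overlap. S9CC13 R6 lay nearer to the S9CC47 mean in 4195 of them (92.7%) and nearer to its own clone in 330 (7.29%). It lay within the range of the S9CC47 samples in 2135 (47.2%), within that of R10, R13 and R14 in 82 (1.81%), and beyond the S9CC47 samples on the far side in 811 (17.9%). On a scale from 0 at the S9CC47 mean to 1 at the mean of R10, R13 and R14, its median position was 0.08. The 2 directions differed. In the 2038 REs higher in R10, R13 and R14 its position was 0.24, and in the 2487 lower it was -0.08. At 0.5 nM the positions of S9CC13 R6 were 0.35 and -0.04, and at 500 nM 0.46 and 0.15. A clone share from samples that do not overlap, as the slope of S9CC13 R6 minus S9CC47 R6 on R10, R13 and R14 minus S9CC47 R5 and R8 over 127267 REs, was -0.10 at 0 nM, with values from -0.43 (5 nM) to -0.03 (0.5 nM) over the 6 doses, and 0.03 at 0 nM with a minimum of 5 CPM. S9CC13 R6 is 1 sample, and among the 7 clone and differentiation outside R6 cannot be told apart. Outside the 7, the tagged R4 vehicle sample at 24 h is S9CC13 by title and column. It stood at -0.25 on the scale of position, past the midpoint in 3.07% of the REs. That sample differs in time as well, and the clone was not tested with it.

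In a fit of set and clone together at 0.5 nM, 241 REs (0.159%) passed for the set, 4 higher and 237 lower in R10, R13 and R14, against 13041 without the clone term. This fit separates set from clone only through S9CC13 R6, and a larger SE alone can lower the count. At the leading NKD1 RE the set difference was 1.65 (SE 0.27) without the clone term and 1.76 (SE 0.47) with it. At INPP5F it was 2.15 (SE 0.54) and 0.73 (SE 0.27). The fall in the count is therefore no measure of the clone. With DESeq2 the same fit gave 2243 REs, 390 higher and 1853 lower. AMOTL1 passed as higher (log2 3.30, SE 0.48, adjusted p = 0.038), and REs nearest to C17orf67 and SH2D4B were among the other 3. At SH2D4B the call rests on S9CC13 R6, with 0.15 CPM at 0.5 nM, since S9CC47 held 1.15 to 1.47 CPM and R10, R13 and R14 held 1.23 to 1.51 CPM. Of the 12 REs named as lower, 9 passed, SIX3 and TEX13A among them. With edgeR the count was 0 without R13, R14 or S9CC47 R6 (18911, 18583 and 22390 at an unadjusted p under 0.05), 17 without R10, 635 without S9CC47 R5 and 3087 without S9CC47 R8.

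For the clone, 6 REs (0.00396%) passed in that fit, all promoter REs higher in S9CC13, and 13131 had an unadjusted p under 0.05. DESeq2 called 219, of which 211 were higher. CAT encodes catalase, which breaks down hydrogen peroxide. Its promoter RE (chr11:34438615-34439115) held 10.3, 10.5, 11.3 and 12.6 CPM in S9CC13 R10, R13, R14 and R6, and 0.281, 0.250 and 0.243 CPM in S9CC47 R5, R6 and R8. The RE was close to shut in S9CC47 and open in S9CC13 whatever the differentiation, and the clone difference at 0.5 nM was 5.74 (SE 0.31, edgeR adjusted p = 0.00019), called in 6 of 6 fits that left out a replicate. It was also open in the 4 WT vehicle samples, at 7.65 to 8.41 CPM. In the tagged R4 vehicle sample at 24 h, which is also of clone S9CC13, it held 12.5 CPM. In the tagged R5 vehicle sample at 24 h, whose title names S9CC13 and whose column names S9CC47, it held 0.309 CPM.

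H3C3 and H2BC3 are neighbouring histone genes of chromosome 6. The H3C3 promoter RE (chr6:26045063-26045563) held 7.83, 5.60, 10.1 and 7.56 CPM in S9CC13 R10, R13, R14 and R6 and 0.216, 0.477 and 0.198 CPM in S9CC47 R5, R6 and R8, with 1.57 to 3.24 CPM in WT samples. The clone difference was 4.48 (SE 0.35, adjusted p = 0.0049), called in 6 of 6 such fits. H2BC3 (3.48, SE 0.35, adjusted p = 0.026), ZNF148 (4.18, SE 0.35, adjusted p = 0.0053), INPP5F (2.58, SE 0.24, adjusted p = 0.015) and ACOT2 (2.83, SE 0.31, adjusted p = 0.043) also passed. ACOT2 kept its call in 1 and H2BC3 in 3 of 6 fits that left out a replicate. INPP5F, a phosphoinositide phosphatase gene, was named above for the set. Its promoter RE held 17.0, 16.6 and 17.6 CPM in R10, R13 and R14, 10.2 CPM in S9CC13 R6 and 1.68, 1.82 and 1.80 CPM in S9CC47 R5, R6 and R8, so that S9CC13 R6 fell between. With the clone term its set difference was 0.73 (SE 0.27, adjusted p = 0.23). Histone genes and ACOT2 have near-identical copies, and their counts are uncertain. In the reverse direction, REs at AMT, ZNF383, GAB4, CCDC152 and FBXO3 were chosen as lower in S9CC13, and none passed with edgeR (adjusted p from 0.15 to 0.63), whereas DESeq2 called AMT, ZNF383 and GAB4 (adjusted p = 5.1e-07, 0.00012 and 0.029). The AMT promoter RE held 2.51, 2.05, 2.12 and 1.58 CPM in S9CC13 R10, R13, R14 and R6 and 6.90, 9.75 and 8.05 CPM in S9CC47 R5, R6 and R8.

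**Figure D5:**
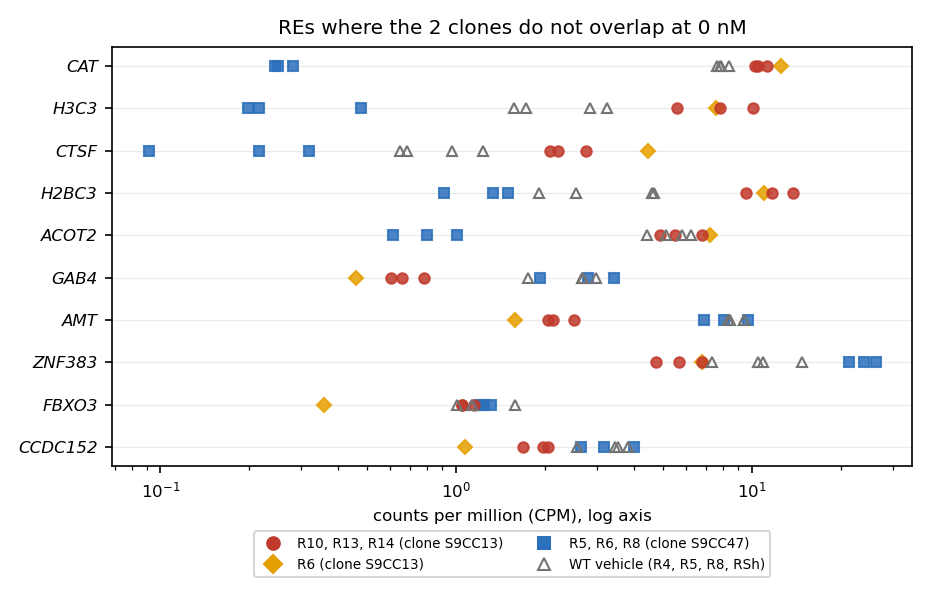
Accessibility at 0 nM in CPM (x axis, log scale) of REs where the 2 clones do not overlap (rows), by sample, with WT vehicle samples as open triangles. At CAT the 4 S9CC13 samples sit between 10.3 and 12.6 CPM, the S9CC47 samples between 0.243 and 0.281 CPM and the WT samples at 7.65 to 8.41 CPM.

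Samples outside the 7 fell mostly on the side of R5, R6 and R8. On the scale of position, over the 4525 REs, WT R8 stood at 0.05 and WT RSh at -0.09 without dTAGV-1. The R4 vehicle samples at 24 h stood at -0.25 (SOX9-tagged, clone S9CC13) and -0.22 (WT). R5 vehicle samples at 24 h lay further towards R10, R13 and R14, with 0.09 for tagged and 0.26 for WT cells, and with 0.31 and 0.49 among the lower REs. S9CC47 R5 at 48 h stood at 0.02. No sample outside R10, R13 and R14 that was free of dTAGV-1 reached 0.5 on this scale, and WT R5 lay past the midpoint in 35.9% of the REs.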

How the data were processed

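ATAC-seq libraries had been aligned with Bowtie2 2.4.1 and peaks called with MACS2 2.2.7.1, with SAMtools 1.10, deepTools 3.5.0 and bedtools also named in the submitters' processing notes. The authors deposited 1 table of raw counts per RE (hg38, 151457 REs, 58 samples), which was used without a filter. The 7 samples compared hold 39.2 to 64.8 M counts, and over all REs they differed by more than counting error. At REs with low CPM, such as TLL1 with 0.164 CPM in R10, few reads were counted and counting error is larger.

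Printed CPM were scaled by TMM over the 58 samples, and components, distances, positions and values at other doses use their log2 with a pseudocount of 0.1 CPM. The 0 nM log2 differences and calls come from an edgeR fit with TMM over the 7 samples and the default prior count. REs were annotated with GENCODE 44. Sets and clones were tested with edgeR 4.0.16 (quasi-likelihood, TMM, Benjamini-Hochberg over all REs, threshold 0.05, R 4.3.3) at 0.5 nM. The response to dTAGV-1 and the 3 h change were tested with the replicate as block. Samples of a replicate share a clone and a differentiation in the labels, and their deviations at 0 and 0.5 nM correlated within each of the 7 replicates, from 0.218 to 0.775. DESeq2 1.42.0, other scalings, a GC correction and leaving out samples were alternatives, and the steps were tested on simulated data.

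The sets and gene lists were chosen with earlier results of these data known. Named REs had a mean of at least 1 CPM. They were the 12 with the largest difference in each direction where the sets did not overlap, 5 in each direction where the clones did not overlap and S9CC13 R6 lay past the midpoint, 2 per gene list, the promoters of markers, and the 4 interactions in each direction with the smallest p, with 1 RE per gene. Some named REs are not reported here.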

Additional observations from a re-analysis of the deposited data

Results flagged for a closer look

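Among the 4 samples of R5, R6 and R8, single samples stood apart from the other 3 at REs named above, in 15 of 92 groups examined, where chance gives about 1 in 20. The REs of the clones were chosen for a distance of S9CC13 R6 from S9CC47, so their part in this count follows from the choice. At 0 nM, S9CC13 R6 stood apart with 10.2 CPM at INPP5F, 12.6 CPM at CAT, 7.56 CPM at H3C3, 4.44 CPM at CTSF, 11.0 CPM at H2BC3, 7.25 CPM at ACOT2 and 0.358 CPM at FBXO3. At 0.5 nM, S9CC13 R6 stood apart with 1.08 CPM at DTNBP1, 9.98 CPM at INPP5F, 13.3 CPM at CAT, 8.33 CPM at H3C3, 4.46 CPM at CTSF, 12.2 CPM at H2BC3 and 6.09 CPM at ACOT2. S9CC47 R8 stood apart at C10orf90, with 1.65 CPM at 0.5 nM.

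The response from 0.5 to 500 nM differed between the sets at 393 REs by the edgeR interaction test with the replicate as block. The named interactions, as the log2 response of R10, R13 and R14 minus that of R5, R6 and R8, were 1.06 at ATXN3L, 1.18 at TRIB2, 1.82 at MPRIP and 1.22 at PDE4B, and -1.20 at CHST8, -0.76 at ASXL1, -1.22 at BAHCC1 and -0.79 at ASB1.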

How the results depend on the processing

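Counts of REs are given with those higher and lower in R10, R13 and R14 in brackets. At 0 nM, total counts as scaling gave (1289, 5295), and leaving out each sample 6228 to 7774 (2062 to 3534, 3189 to 5169). At 0.5 nM the set difference was 5300 (2240, 3060) with GC correction, 3677 (1254, 2423) over distal REs alone, an alternative chosen after seeing the data, 9145 higher with DESeq2, and 1605 to 16816 (478 to 11467, 1127 to 9815) without 1 replicate. Its promoter share difference ran from 6.39 to 8.43 percentage points. With the clone term it was 2243 (390, 1853) with DESeq2, 130 (0, 130) over 5 summed doses and 0 to 3087 (0 to 294, 0 to 2793) without 1 replicate, fits also added after seeing the data. The clone count was 219 (211, 8) with DESeq2 and 2 to 8 (2 to 8, 0 to 0) without 1 replicate. The clone slope changed sign to 0.0275 at a minimum of 5 CPM. The interaction count was 223 with DESeq2 (123 lower), 214 with DESeq2 size factors (118 lower), 213 from 1.6 nM (144 lower) and 0 to 4186 (0 to 432, 0 to 3754) without 1 replicate. DESeq2 called 464 REs higher at 3 h. The causes were not tested. With no replicate block, edgeR gave 0 (0, 0) for the interaction and 0 (0, 0) for the 3 h test, with 3008 and 8306 REs at an unadjusted p under 0.05. No paired analysis was possible for the sets because they hold different differentiations. For single REs and lists, 734 values under alternatives kept direction and side of the threshold or moved by less than their spread, 56 missed the threshold, 7 newly passed it, 9 moved and 0 reversed.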
